A study of Drosophila melanogaster with 58 samples.

Results

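Gamma neurons of the Drosophila melanogaster mushroom body, a centre of olfactory memory in the fly brain, were compared between the adult and 30 h after pupa formation. All libraries carrying those labels were taken, which gave 10 of the 58 libraries of the series, 5 for each stage. The adults were aged 3 to 5 days after eclosion, the flies were kept at 25 °C, and both sexes entered without selection. Each library held RNA from 1000 GFP-positive cells sorted out of dissociated brains and amplified by Smart-seq2, which primes on poly(A) tails. The 5 adult and 5 30 h libraries of alpha-beta neurons, a later-born class of Kenyon cells, were compared only to ask whether a change differed between the classes. All 58 libraries of the series entered the fit, however, and so shaped the gene filter, the scaling and the estimate of spread. The genotype, the driver that labelled the cells and the number of brains behind a library are not given in the sources used here. Nothing in the labels says that replicates came from separate animals, so the p-values measure the spread between libraries within the groups of the series. That spread may be partly technical.

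Gamma neurons are the first-born Kenyon cells. They prune their larval axons early in metamorphosis under the steroid hormone ecdysone and then regrow them toward the adult gamma lobe, and 30 h falls in that regrowth. Growing axons depend on actin and tubulin turnover, guidance receptors and protein synthesis. Adult Kenyon cells fire sparsely in response to odours, release acetylcholine and the short neuropeptide F, and receive dopamine that drives memory through cAMP.

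The 30 h libraries held 8184961 to 23937961 counts and the adult libraries 7684536 to 17690132. A gene was counted at least once for 6933 to 7948 gene symbols at 30 h and for 5854 to 7343 in adults. All 14 markers fixed for Kenyon cells were detected, and their summed level was 8826, 7266, 10584, 8708 and 7627 CPM (counts scaled to 1000000 per library, with TMM factors) in 30 h replicates 1 to 5 and 11752, 10629.6, 13974, 17679 and 19779 CPM in adult replicates 1 to 5. Of these 14 markers, 6 were called higher in adults (42.9%) and none lower. The 6 were sNPF, rut, Dop1R1, Dop1R2, prt and Mef2, which are also among the increases described below. Markers of other cells differed among the adult libraries. The sum of the 15 glial markers was 687 to 1216 CPM at 30 h and 3890.5, 2572, 2232, 1021 and 563 CPM in adults, while the defining glial factor repo was at 13.6, 0, 0, 0.0637 and 0 CPM in the same adult libraries. The sum of 10 markers of other transmitter classes was 439 to 709.8 CPM at 30 h and 3241, 1003, 2726, 1069 and 576 CPM in adults. Adult replicate 1 was the highest library for both sums. In the list of other transmitter classes, DAT made up most of the 30 h sum and fell. Gad1 made up most of the adult sum in replicates 2 to 5 and rose (values below). Of these 10 markers, 1 was called higher and 1 lower in adults. The sum of 9 muscle markers was 503, 86.3, 165, 119.6 and 312 CPM at 30 h and 284, 7.51, 88.9, 0.127 and 0 CPM in adults, with overlap, and of the 8 tested 2 fell and 2 rose. Most of the 30 h sum came from bt, a giant protein of muscle, at 462, 67.4, 137, 109.7 and 285 CPM at 30 h and 43, 0.0963, 0.228, 0.127 and 0 CPM in adults (log2 fold change -4.61, SE 0.96, edgeR adjusted p = 0.000566). The sums of photoreceptor, hemocyte, fat body and neuroblast markers overlapped between stages, at 40.1–102, 417–459.8, 21.1–51.9 and 1419–3220.2 CPM at 30 h and 18.9–254, 394–664, 23.4–158 and 786–3619 CPM in adults. Nearly all of the neuroblast sum came from pros (values below). Of 9 tested neuroblast markers 2 fell and none rose, and 6 were lower at an unadjusted edgeR p under 0.05. Of 7 photoreceptor and 8 fat body markers tested, 2 and 1 rose and none fell. None of 3 tested hemocyte markers was called. The part of such cells in the changes below was not tested. Adult replicate 5 was the highest adult library for 44.1% of the genes that rose, against 28.7% of the 5921 tested genes with a mean of at least 10 CPM in adults. It had the fewest counts and genes, and its TMM factor of 0.743, against 0.884 to 1.08 in the other libraries, raised its CPM. Its long noncoding RNAs summed to 147135 CPM, against 39946 to 57748 CPM in the other adult libraries. The part of this scaling in its high values was not tested. In such bulk samples, fewer cells of a type and less RNA per cell cannot be told apart.

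Of 10072 genes tested, 510 rose from 30 h to the adult (5.06%) and 522 fell (5.18%), by edgeR's quasi-likelihood test at a Benjamini-Hochberg adjusted p under 0.05. The median log2 fold change over all tested genes was -0.07. For 568 of the 1032 called genes the 5 adult and 5 30 h libraries did not overlap, and 586 were called whichever single library was left out. Of the genes named below, the fit of only the 10 libraries did not call brp, KaiR1D, para, Gbeta13F, betaTub56D, otk, Sema1b, jeb, eIF4E1, eEF1alpha2, Rpn6, HDAC1, gce, bi, jing, bt, SP1173, MESR6 and GILT1, and it did not test stan, Thor, grh, teq and Eglp4. Limma-voom did not call Gbeta13F, jeb, Hr51, Thor, eIF4E1, eEF1alpha2, pAbp, Hsp67Bc, Hsp27, Hsp23, Hsp26, grh, gce, jing, teq and Eglp4. Group counts of 0 to 2 genes moved by at most 2 when a single library was left out, and larger counts that moved by over 1.5 times are given with their groups. A call said to be lost without several libraries was lost when each of them alone was left out. Levels below are in CPM in the order of replicates 1 to 5, and fold changes are log2, adult minus 30 h. Gene groups are described by how many tested members rose or fell, beside the 5.06% and 5.18% of all tested genes. The lists were chosen with earlier results of these data known, so a share above these values is a description and no test of a group.

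**Figure D1:**
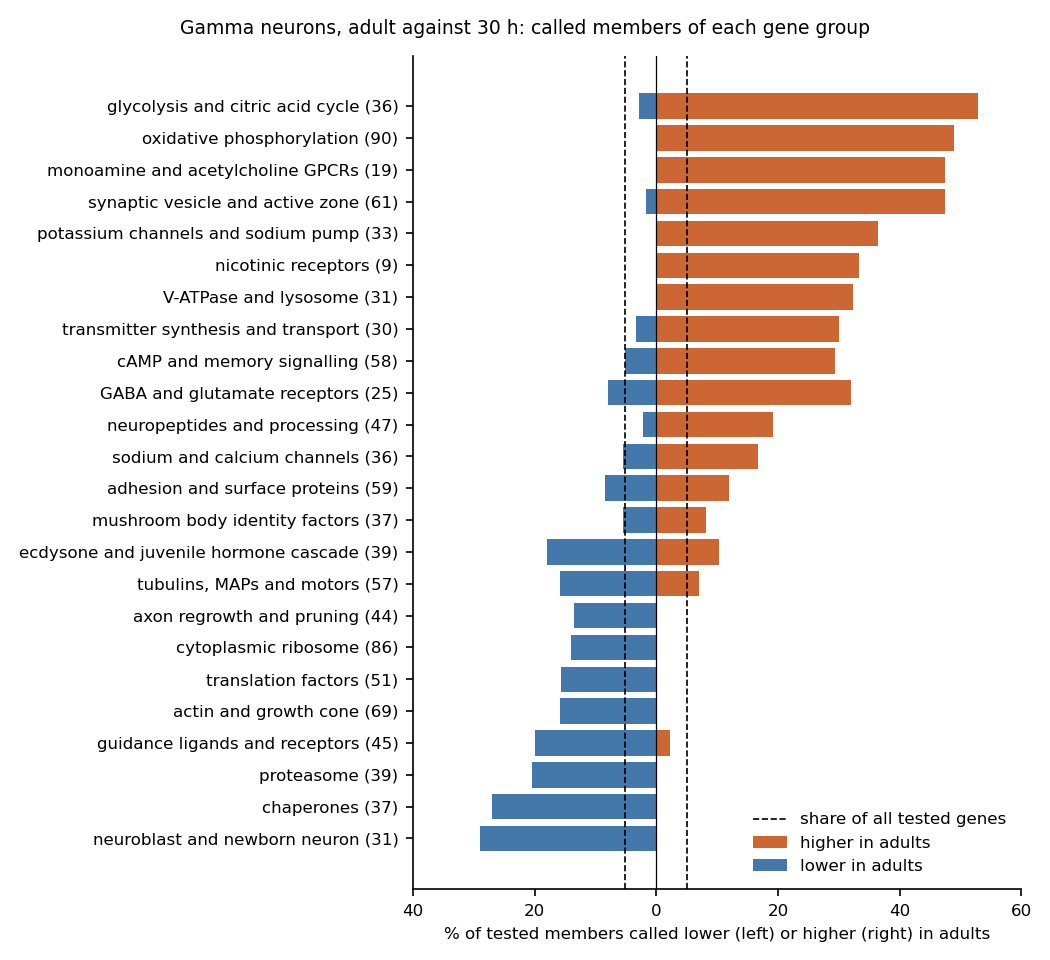
Bars give the percentage of tested members of each gene group that were called higher (right, orange) or lower (left, blue) in adult gamma neurons than at 30 h, with the number of tested members in brackets. Dashed lines mark the shares of all tested genes, 5.06% higher and 5.18% lower. The groups were chosen with earlier results of these data known, so the bars describe them and do not test them. Energy metabolism, synapse and receptor groups extend furthest to the right, and chaperones, the proteasome and newborn neuron genes furthest to the left.

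Hormone-responsive regulators changed in both directions. Of 39 tested genes of the ecdysone and juvenile hormone cascades, 4 rose and 7 fell, and the libraries did not overlap for 10 of these 11. Hr4, an ecdysone-induced nuclear receptor, was at 1054, 761, 796, 515 and 1872 CPM at 30 h and 19.5, 1.83, 2.23, 11.5 and 0.351 CPM in adults. Every adult library was far below every 30 h library (log2 fold change -7.13, SE 0.80, edgeR adjusted p = 1.59e-09). Its means at 18, 21, 24 and 27 h were 40.7, 183, 198 and 345 CPM.

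Blimp-1, an ecdysone-induced repressor that times ftz-f1, fell from 477, 379, 511, 377 and 1187 CPM to 72.9, 39.6, 48.4, 145 and 148 CPM (log2 fold change -2.69, SE 0.42, edgeR adjusted p = 3.43e-06). Oatp74D, the transporter that brings ecdysone into cells, was at 29.7–49.1 CPM at 30 h and at 0, 0.77, 0, 0 and 0 CPM in adults (edgeR adjusted p = 2.99e-05). Sox14, an ecdysone-induced factor needed for pruning of gamma axons, was at 18.8, 24.2, 40.8, 27.9 and 27.1 CPM at 30 h and had no count in any adult library, which made it at least 52.8-fold lower (edgeR adjusted p = 0.000117). None of the 3 genes overlapped between stages.

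Most regulators that rose had few or no counts at 30 h. Kr-h1, the zinc finger factor induced by juvenile hormone, had no count in any 30 h library and stood at 128, 52.4, 63.5, 61.9 and 82.9 CPM in adults, at least 230.3-fold higher (edgeR adjusted p = 3.07e-06). The gamma libraries at 18, 21, 24 and 27 h also held none. ftz-f1, a nuclear receptor that acts between ecdysone pulses, was at 0, 0, 1.07, 0 and 0.0562 CPM at 30 h and 95.8, 71.1, 44.2, 115 and 147 CPM in adults (edgeR adjusted p = 0.000402). gce, a receptor for juvenile hormone, rose from 10.8–22.4 CPM to 32.5–118 CPM (log2 fold change 1.81, SE 0.61, edgeR adjusted p = 0.0441), but this call was lost without 30 h replicates 1, 2, 3, 4 or 5 or adult replicates 1 or 5 (edgeR adjusted p = 0.0652 to 0.125). Hr38, an orphan nuclear receptor whose gene responds to neuronal activity, was at 0, 0, 3.21, 6.23 and 0 CPM at 30 h and 196, 337, 149, 659.9 and 1523 CPM in adults, with the largest adult value in replicate 5 (edgeR adjusted p = 0.0117).

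The ecdysone receptor itself showed no called change. EcR was at 136, 138, 96, 89.2 and 135 CPM at 30 h and 289, 59.8, 50.4, 206 and 175 CPM in adults (log2 fold change 0.39, SE 0.42, edgeR adjusted p = 0.631), and its partner usp was at 102–172 and 8.24–183 CPM (edgeR adjusted p = 0.767). The stages overlapped for both. Eip75B, Eip93F and br, which encode early ecdysone-response factors, overlapped too, with log2 fold changes of -0.49, 0.56 and -0.66 and edgeR adjusted p-values of 0.271, 0.347 and 0.632.

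Ranked by fitted log2 fold change, the largest increases outside the hormone cascades were in genes of varied function. This ranking favours genes with no count at 30 h, whose fitted size depends on the prior count. Tob, of the Tob/BTG family of antiproliferative proteins, had no count at 30 h and 646, 445, 312, 410.4 and 1032 CPM in adults, at least 1684-fold more (edgeR adjusted p = 1.01e-05). Rgk3, a small GTPase of a family that restrains calcium channels in mammals, was at 0, 0.182, 0.673, 0 and 0.843 CPM at 30 h and 127, 113, 51.6, 188 and 159 CPM in adults (edgeR adjusted p = 0.00201). Got2, a mitochondrial aspartate aminotransferase, had 0, 0, 0, 0.474 and 0 CPM and 166, 128, 28.4, 107 and 94.5 CPM (edgeR adjusted p = 0.00886). The long noncoding RNA lncRNA:CR45054 had no count at 30 h and 66.9–321 CPM in adults (edgeR adjusted p = 0.000196). The other genes among the 12 largest increases carry only annotation numbers. CG4678 and CG12769 had no count at 30 h and stood at 44–269 and 23.4–240.3 CPM in adults. CG10257, CG14757 and CG3009 were at or below 1.31 CPM in every 30 h library and at 60.7–143, 46–217 and 77.1–197 CPM in adults, and the call of CG3009 was lost without 30 h replicates 1, 2, 4 or 5 or adult replicate 1 (edgeR adjusted p = 0.0522 to 0.075).

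The 12 largest decreases by fitted log2 fold change included secreted and developmental proteins that had no count in any adult library. For such genes the fitted size depends on the prior count, so genes with a few adult counts, such as Hr4, can rank below them. ETHR, the receptor for ecdysis triggering hormone, was at 53.5, 135, 325, 156 and 159 CPM at 30 h, at least 315-fold above adults (edgeR adjusted p = 2.35e-08). betaTub60D, a beta tubulin of differentiating cells, was at 74.1, 74.7, 92, 83.2 and 104.3 CPM at 30 h (edgeR adjusted p = 4.92e-05). E(spl)mbeta-HLH, a repressor induced by Notch, was at 17.6, 33.4, 44.6, 23.4 and 102 CPM (edgeR adjusted p = 8.93e-05). All 3 were present in each 30 h library, and no adult library held a count. CG31075 and CG12880 likewise had no adult count and were at 43.3–85.6 and 67.8–149 CPM at 30 h.

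A further 7 genes of these 12 were high in gamma libraries at 30 h and low in alpha-beta libraries of the same age. So were betaTub60D and CG12880, named above, whose alpha-beta values are given below. ImpE2, a secreted protein induced by ecdysone in imaginal discs, was at 188, 269, 196, 256 and 397 CPM in gamma libraries and 0–10 CPM in the 5 alpha-beta libraries. Spn43Aa, a serine protease inhibitor of the serpin family, was at 33.6, 115, 99.8, 75.3 and 488 against 0–7.98 CPM. CG13023 was at 325, 333, 339, 377 and 763 against 0–17.9 CPM. These 3 genes were lower in every alpha-beta library than in every gamma library. The odorant-binding protein gene Obp99a was at 23.5–97 against 1.03–12 CPM, CG34247 at 36.6–264 against 0–5.37 CPM and CG18735 at 23.2–146 against 0–29.9 CPM. CG7675 was at 6.76–137 CPM with no count in alpha-beta libraries. Among these further genes, only CG18735 overlapped between the classes at 30 h. In adult gamma libraries all 7 had no count, except for CG34247 at 0.175 CPM in replicate 5. Markers of trachea and cuticle, whose cells secrete proteins, summed to 36.7, 151, 71.7, 36.2 and 244 CPM at 30 h and 40.2, 35.9, 0.228, 81.3 and 161 CPM in adults, with overlap, and their part in these decreases was not tested.

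**Figure D2:**
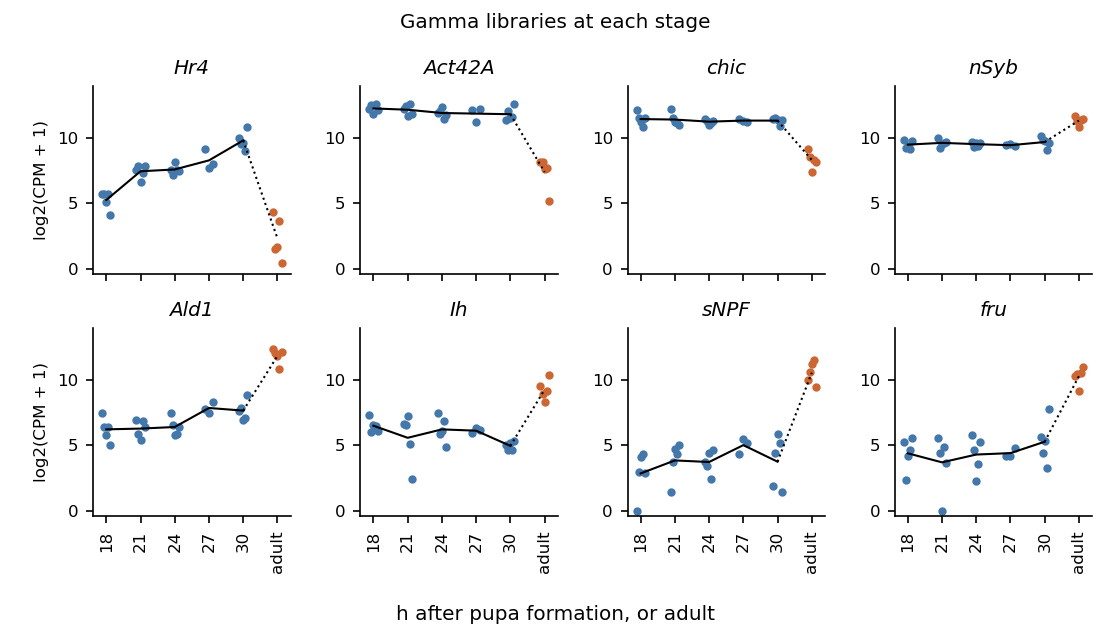
Each panel shows 1 gene in every gamma library as log2(CPM + 1), at 18, 21, 24, 27 and 30 h after pupa formation (blue) and in adults (orange), with a solid line through the pupal means and a dotted line to the adult mean. Hr4 climbs to 30 h and is low in adults, Act42A and chic are low in adults alone, and nSyb, Ald1, Ih, sNPF and fru have higher means in adults than at any pupal stage.

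In the actin machinery of growing axons, the called genes fell. Of 69 tested actin and growth cone genes, 11 fell and none rose (3 rose at an unadjusted edgeR p under 0.05, 2 by DESeq2 and 4 by limma-voom), and the median log2 fold change was -0.70 against -0.07 for all tested genes. Act42A, a cytoplasmic actin, was at 2713, 4231, 2922, 3133 and 6193 CPM at 30 h and 294, 291, 203, 210.0 and 35.8 CPM in adults (log2 fold change -4.21, SE 0.37, edgeR adjusted p = 3.02e-13). chic, the profilin that feeds actin monomers to growing filaments, was at 2811, 2919, 2661, 1966 and 2759 CPM and 581, 379.8, 171, 316 and 287 CPM (log2 fold change -2.92, SE 0.27, edgeR adjusted p = 2.17e-12). For both, the lowest 30 h library was several times the highest adult library. At 18, 21, 24 and 27 h the means were 5072, 4791, 3991 and 3935 CPM for Act42A and 2945, 2899, 2474 and 2612 CPM for chic.

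Act5C, the other main cytoplasmic actin, fell from 9924–11667 CPM to 2708–5584 CPM (log2 fold change -1.28, SE 0.15, edgeR adjusted p = 7.06e-09). The cofilin tsr, which severs filaments, went from 1285, 2196, 1242, 1669 and 1778 CPM to 251, 349, 294, 323 and 927 CPM (log2 fold change -1.93, SE 0.34, edgeR adjusted p = 3.62e-05), with adult replicate 5 the highest adult library. sn, the fascin that bundles filaments, dropped from 349–596 to 12.6–142 CPM (log2 fold change -2.70, SE 0.38, edgeR adjusted p = 5.96e-07). The GTPase Rac1, which steers actin assembly, fell from 951–1486 to 273–750.2 CPM (-1.35 log2, edgeR adjusted p = 1.8e-05). None of these 4 genes overlapped between stages.

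Microtubule genes moved both ways. Among 57 tested tubulins, microtubule-associated proteins and motors, 9 fell and 4 rose. alphaTub84B, the main alpha tubulin, was at 4707, 6094, 3661, 4602 and 5451 CPM at 30 h and 2079, 2716, 2665, 1472 and 1132 CPM in adults (log2 fold change -1.28, SE 0.21, edgeR adjusted p = 1.09e-05). betaTub56D, the main beta tubulin, was at 3131, 4822, 3727, 4836 and 5833 CPM and 2223, 2475, 3078, 1553 and 943 CPM (log2 fold change -1.12, SE 0.19, edgeR adjusted p = 3.31e-05). Every adult library was below every 30 h library for both. The microtubule-binding protein Jupiter fell from 1333–1592 to 398–797 CPM (log2 fold change -1.45, SE 0.16, edgeR adjusted p = 1.82e-09). fax, a protein that acts with the Abl kinase in axon growth, fell from 4274, 3935, 3555, 2948 and 5168 CPM to 899, 627, 428, 583 and 775 CPM (log2 fold change -2.59, SE 0.19, edgeR adjusted p = 4.57e-16). In the other direction, futsch, the MAP1B of flies, was at 272, 378, 265, 188 and 594 CPM at 30 h and 1513, 743, 507, 569.6 and 3421 CPM in adults (log2 fold change 1.99, SE 0.45, edgeR adjusted p = 0.00162). The futsch libraries overlapped, because 30 h replicate 5 exceeded adult replicates 3 and 4.

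Guidance genes fell more often than they rose. Of 45 tested ligands and receptors, 9 fell and 1 rose, with a median log2 fold change of -0.75. stan, the atypical cadherin Flamingo, was at 21.6, 18.8, 39.4, 0.609 and 70.3 CPM at 30 h and had no count in adults, at least 57.4-fold lower (edgeR adjusted p = 1.38e-05). fz3, a Wnt receptor of the Frizzled family, was at 10.7, 19.2, 40.9, 67.8 and 18 CPM at 30 h with no count in adults, at least 59.5-fold lower (edgeR adjusted p = 2.62e-05). otk, a receptor that acts with plexin and Wnt signals, was at 51.8, 29.7, 15.8, 24.8 and 71.2 CPM and then 0, 3.56, 0, 0.955 and 0 CPM (log2 fold change -5.39, SE 1.02, edgeR adjusted p = 0.000132). Sema1b, a transmembrane semaphorin, was at 152, 128, 219, 180.5 and 201 CPM and 74.9, 59.8, 81.9, 90.7 and 88.9 CPM (log2 fold change -1.15, SE 0.27, edgeR adjusted p = 0.00265). The stages were separate for these 4 genes. The single increase was jeb, a secreted ligand of the receptor kinase Alk, which went from 284, 217, 225, 168 and 499 CPM to 333, 269.9, 150.5, 837 and 2235 CPM with overlap (log2 fold change 1.46, SE 0.42, edgeR adjusted p = 0.0162). That call was lost without 30 h replicate 4 or adult replicate 5 (edgeR adjusted p = 0.0551 to 0.417). With only the 10 libraries in the fit, 3 guidance genes fell and none rose.

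Adhesion molecules split. Among 59 tested genes 7 rose and 5 fell. Fas1, the lipid-anchored fasciclin, rose from 1060.2, 836, 897, 678 and 1258 CPM to 7291, 4731, 3657, 3768 and 4758 CPM (log2 fold change 2.36, SE 0.22, edgeR adjusted p = 3.37e-12). Fas3, a homophilic adhesion protein, fell from 305.1, 437, 369.7, 422 and 430.3 CPM to 7.91, 31.6, 15.7, 37.4 and 6.49 CPM (log2 fold change -4.30, SE 0.56, edgeR adjusted p = 5.17e-08). The 2 genes moved in opposite directions with no overlap in either. Fas2, which marks the mushroom body lobes, was at 229, 269, 274, 331 and 331 CPM at 30 h and 369.5, 334, 491, 464 and 728 CPM in adults, and this separation did not pass the test (log2 fold change 0.73, SE 0.30, edgeR adjusted p = 0.0969).

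CadN, the neuronal cadherin, fell from 329–495 to 74.6–173 CPM (log2 fold change -1.73, SE 0.25, edgeR adjusted p = 1.09e-06). kek1, a leucine-rich repeat protein that inhibits the EGF receptor, rose from 59.5, 87.1, 89.5, 57.1 and 131 CPM to 772, 547, 349.6, 414 and 3397 CPM (log2 fold change 3.69, SE 0.49, edgeR adjusted p = 1.01e-07). The immunoglobulin protein klg, needed for long-term memory, rose from 50.6, 73.4, 103, 90.2 and 67.6 CPM to 589, 332, 288, 436 and 1333 CPM (log2 fold change 2.95, SE 0.46, edgeR adjusted p = 4.19e-06). The adult value of replicate 5 was the highest for kek1 and klg, and both were called in every fit with a library left out. Of 21 tested surface protein genes of the Beaten path and Side families 2 rose and 1 fell, with a median log2 fold change of 0.88. With only the 10 libraries in the fit, none of them rose and 1 fell. The member that fell was beat-VI, from 376–781 to 159–342 CPM (log2 fold change -1.33, SE 0.26, edgeR adjusted p = 0.000263). Of 32 tested dpr and DIP surface protein genes 3 rose and 2 fell, and 1 rose and none fell with only the 10 libraries.

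Regrowth genes that changed fell, and nutrient signalling genes were near the background shares. Of 44 tested regrowth and pruning genes 6 fell and none rose (4 rose at an unadjusted edgeR p under 0.05, 1 by DESeq2 and 2 by limma-voom). Hr51, the nuclear receptor required for gamma axon regrowth, was at 817, 767, 610.5, 698 and 1166 CPM at 30 h and 264, 521, 378, 366 and 433 CPM in adults (log2 fold change -1.05, SE 0.29, edgeR adjusted p = 0.0111). The stages did not overlap, though limma-voom did not call it. Of 31 tested genes of the insulin and TOR pathways 1 rose and 2 fell. REPTOR, a factor held inactive by TOR, rose from 14.8, 10.1, 54.6, 3.11 and 17.7 CPM to 134, 94.8, 94.8, 114 and 169.5 CPM (log2 fold change 2.60, SE 0.73, edgeR adjusted p = 0.0127). The insulin receptor InR was at 267, 236, 167, 109 and 220.4 CPM at 30 h and 19.3, 19.5, 36.2, 43.9 and 273 CPM in adults, where replicate 5 stood apart from the other 4, and was not called (log2 fold change -1.35, SE 0.56, edgeR adjusted p = 0.105). Thor, the 4E-BP that represses translation, was at 3.6, 0, 15.6, 12.4 and 2.86 CPM at 30 h and without counts in adults (edgeR adjusted p = 0.0251), a call lost without adult replicates 1, 3 or 4 (edgeR adjusted p = 0.0506 to 0.0534).

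**Figure D3:**
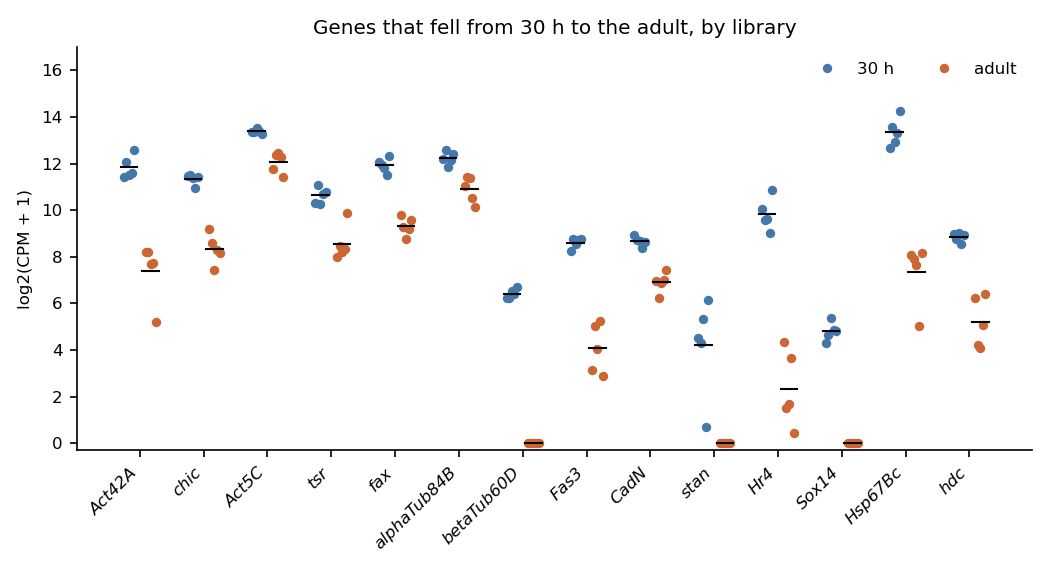
Points show log2(CPM + 1) of 14 genes in each of the 5 libraries at 30 h (blue) and in adults (orange), and black bars show the means. For every gene shown, the highest adult library lies below the lowest 30 h library, and betaTub60D, stan and Sox14 have no count in any adult library.

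Called genes of protein synthesis and turnover fell. Of 86 tested cytoplasmic ribosomal protein genes 12 fell and none rose (0 rose at an unadjusted edgeR p under 0.05, 0 by DESeq2 and 0 by limma-voom). Their summed level was 20406, 45382, 32084, 39711 and 31247 CPM at 30 h and 13654, 19926, 19120.4, 14089 and 51101 CPM in adults. Adult replicate 5 was thus above every 30 h library, whereas the other 4 adult libraries were below every 30 h library. Without adult replicate 5, 43 of these genes fell in place of 12, 7 fell without 30 h replicate 2 or adult replicate 1, and 6 fell without adult replicate 3 or 4. The count was 21 with a block for sets of library numbers, 28 by limma-voom and 3 with only the 10 libraries in the fit. RpS5a, of the small subunit, was at 340.1, 1068, 821, 886 and 321 CPM and 157, 348, 162, 161 and 196 CPM (log2 fold change -1.75, SE 0.30, edgeR adjusted p = 3.33e-05), and RpL22, of the large subunit, went from 267–377 CPM to 91.2–156 CPM (log2 fold change -1.47, SE 0.29, edgeR adjusted p = 0.000303).

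Among 51 translation factors 8 fell and none rose (2 rose at an unadjusted edgeR p under 0.05, 2 by DESeq2 and 0 by limma-voom). The count that fell was 5 without adult replicate 1, 5 by limma-voom and 2 with only the 10 libraries in the fit. eIF4E1, the cap-binding factor, was at 792, 933, 646, 657 and 748 CPM at 30 h and 394, 666, 523, 285 and 263 CPM in adults (log2 fold change -0.82, SE 0.23, edgeR adjusted p = 0.0108). pAbp, the poly(A)-binding protein, fell from 3729, 3113, 5088, 4067 and 3414 CPM to 1719, 1418, 1796, 2349.8 and 573 CPM (log2 fold change -1.31, SE 0.38, edgeR adjusted p = 0.0174). eEF1alpha2, an elongation factor, was at 2586–3964 CPM and 871–2884 CPM (log2 fold change -0.91, SE 0.27, edgeR adjusted p = 0.0176). All 3 were lower on average in adults, and none of the calls was made by limma-voom. The call of pAbp was also lost without adult replicate 5 (edgeR adjusted p = 0.0672), and that of eEF1alpha2 without 30 h replicate 4 or adult replicates 1 or 5 (edgeR adjusted p = 0.0507 to 0.0727).

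Proteasome genes showed a median log2 fold change of -0.92, and 8 of 39 fell with none rising (1 rose at an unadjusted edgeR p under 0.05, 1 by DESeq2 and 0 by limma-voom). Rpn5 and Rpn6, subunits of the regulatory lid, fell from 273–706 to 60.9–231 CPM (log2 fold change -1.45, SE 0.28, edgeR adjusted p = 0.000153) and from 312–734 to 116–306 CPM (log2 fold change -1.16, SE 0.23, edgeR adjusted p = 0.000281). The proteasome count was 3 without adult replicate 4, 5 without 30 h replicate 2, 4 or 5, 5 by limma-voom, 1 with only the 10 libraries in the fit and 16 with the block for sets of library numbers.

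Small heat shock proteins, chaperones that hold unfolded proteins, fell. Of 37 tested chaperone genes 10 fell, all without overlap, and none rose (4 rose at an unadjusted edgeR p under 0.05, 3 by DESeq2 and 2 by limma-voom). Hsp67Bc was at 6492, 12033, 7709, 10046 and 19368 CPM at 30 h and 269, 242, 197, 31.3 and 286 CPM in adults (log2 fold change -5.76, SE 0.45, edgeR adjusted p = 8.08e-15). Hsp27 was at 4234, 6782, 3995, 5778 and 14408 CPM and 614, 1064, 827, 75.4 and 262 CPM (log2 fold change -3.63, SE 0.44, edgeR adjusted p = 1.44e-08). No adult library reached the lowest 30 h library for either gene. Hsp23 fell from 4231–8607 to 169.9–2094 CPM (log2 fold change -2.58, SE 0.40, edgeR adjusted p = 3.61e-06) and Hsp26 from 6474–23336 to 387–5771 CPM (log2 fold change -2.15, SE 0.42, edgeR adjusted p = 0.000195). Limma-voom gave these 4 genes log2 fold changes of -5.99, -3.56, -2.90 and -2.15 but adjusted p-values of 0.232, 0.104, 0.0791 and 0.259, whereas the other 7 alternative settings and all 10 fits without a library called them.

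Called genes of young neurons fell. Of 31 tested genes of neuroblasts and newborn neurons 9 fell and none rose (0 rose at an unadjusted edgeR p under 0.05, 0 by DESeq2 and 0 by limma-voom). Their median log2 fold change was -2.33, or -1.50 with the 16 genes that had no count in a group set at their bound. hdc, the headcase protein of imaginal cells, was at 510.4, 439, 524, 375 and 493 CPM at 30 h and 73.9, 17.6, 16.1, 32.3 and 84.3 CPM in adults (log2 fold change -3.39, SE 0.32, edgeR adjusted p = 3.74e-12). brat, a translational repressor that ends neuroblast proliferation, fell from 1281, 742, 1472, 1296 and 954 CPM to 211, 104.4, 293, 263 and 272 CPM (log2 fold change -2.33, SE 0.32, edgeR adjusted p = 2.74e-07). Both were separate between stages. grh, a neuroblast transcription factor, was at 17.5, 0, 2.18, 1.29 and 0 CPM at 30 h with no count in adults (edgeR adjusted p = 0.0144), and the 30 h value rests mainly on replicate 1. That call was lost without 30 h replicate 1 (edgeR adjusted p = 0.0507).

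Chromatin genes followed the same direction in part, with 7 of 62 falling and 1 rising. HmgD, a DNA-bending protein abundant in embryonic chromatin, fell from 579, 995, 707, 784 and 763 CPM to 134, 186, 284, 94.6 and 114 CPM (log2 fold change -2.23, SE 0.26, edgeR adjusted p = 2.64e-09). HDAC1, a histone deacetylase, fell from 148–492 to 8.41–144 CPM (log2 fold change -2.04, SE 0.44, edgeR adjusted p = 0.000748). HDAC4, a deacetylase linked to memory, was the member that rose, from 126, 39.7, 83, 37.1 and 32.6 CPM to 213, 216, 109, 246 and 608 CPM (log2 fold change 2.13, SE 0.44, edgeR adjusted p = 0.000469). Its stages overlapped by 1 library, 30 h replicate 1.

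In energy metabolism, nearly all called genes rose. Of 90 tested genes of oxidative phosphorylation 44 rose and none fell (3 fell at an unadjusted edgeR p under 0.05, 0 by DESeq2 and 0 by limma-voom), with a median log2 fold change of 1.32. The increase ran through the chain, since 19 of 43 genes of complex I, 2 of 4 of complex II, 8 of 9 of complex III, 11 of 15 of complex IV and 3 of 16 of the ATP synthase rose. Cyt-c-p, the cytochrome c that carries electrons between complexes III and IV, was at 173, 341, 191, 288 and 277 CPM at 30 h and 969.7, 1562, 1562, 699 and 3816 CPM in adults (log2 fold change 2.76, SE 0.44, edgeR adjusted p = 7.66e-06). ND-23, of complex I, was at 90.2, 145, 155, 98.6 and 148 CPM and 398, 624, 519.6, 303.6 and 1068 CPM (log2 fold change 2.19, SE 0.37, edgeR adjusted p = 2.09e-05). The stages did not overlap for either.

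COX4, of complex IV, rose from 191–496 to 575–2434 CPM (log2 fold change 1.69, SE 0.36, edgeR adjusted p = 0.000736), and the mitochondrial genome's mt:CoII from 655–1942 to 2023–5370.0 CPM (log2 fold change 1.67, SE 0.45, edgeR adjusted p = 0.00947). ATPsynC, the ring subunit of the ATP synthase, was at 3224–5626 and 3696–7858 CPM and was not called (log2 fold change 0.57, SE 0.25, edgeR adjusted p = 0.13). The summed level of all members in the table was 21373, 35616, 22764, 26823 and 36614 CPM at 30 h and 52930.0, 67249, 61790.3, 35712 and 106789.6 CPM in adults, where replicate 4 was within the 30 h range and replicate 5 was highest. Without adult replicate 5, 22 genes rose in place of 44, and 14 rose with only the 10 libraries in the fit.

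Glycolytic genes were higher too. Of 36 tested genes of glycolysis and the citric acid cycle 19 rose and 1 fell. Ald1, the aldolase, was at 196, 237, 121, 133 and 457 CPM at 30 h and 5318, 4373, 3629, 1867 and 4479 CPM in adults (log2 fold change 4.10, SE 0.46, edgeR adjusted p = 1.59e-09). PyK, the pyruvate kinase that ends glycolysis, was at 36.3, 44.2, 11.5, 45.9 and 68.3 CPM and 1404.4, 1974, 1845, 1139.8 and 589 CPM (log2 fold change 5.08, SE 0.79, edgeR adjusted p = 3.92e-06). Gapdh1, the triose phosphate dehydrogenase, rose from 101–233 to 521–1633 CPM (log2 fold change 2.51, SE 0.37, edgeR adjusted p = 1.53e-06). All 3 were separate between stages, and here adult replicate 5 was not the highest library. Mean Ald1 levels at 18, 21, 24 and 27 h were 87.2, 83.8, 92.9 and 240.2 CPM.

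**Figure D4:**
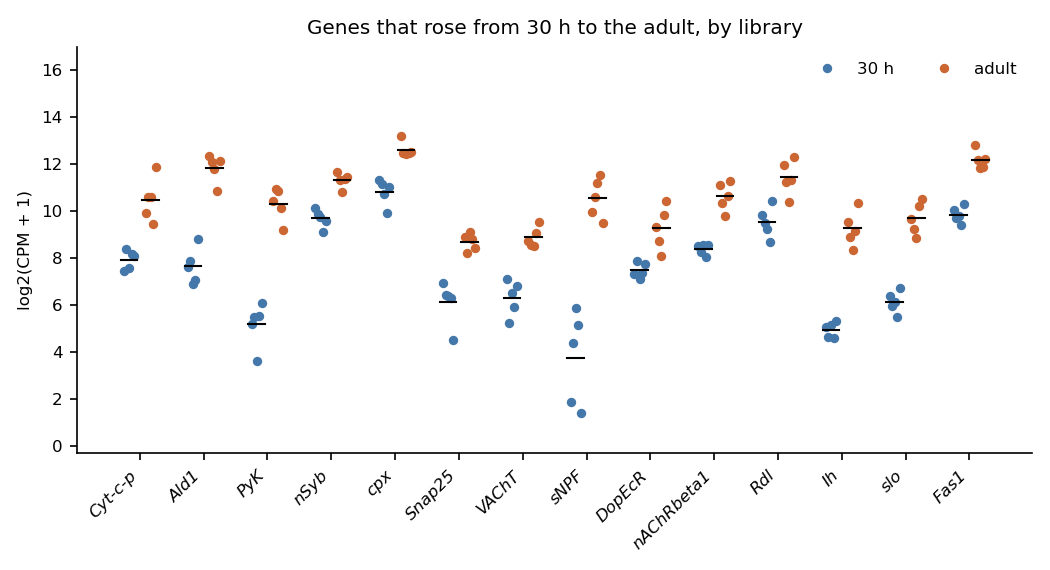
Points show log2(CPM + 1) of 14 genes in each of the 5 libraries at 30 h (blue) and in adults (orange), and black bars show the means. The adult libraries lie above the 30 h libraries for every gene shown except Rdl, whose lowest adult library is below its highest 30 h library.

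In the presynaptic machinery, increases outnumbered decreases. Of 61 tested genes of synaptic vesicles and active zones 29 rose and 1 fell, with a median log2 fold change of 1.39. nSyb, the neuronal synaptobrevin that fuses vesicles with the membrane, was at 1124, 943, 868, 556 and 782 CPM at 30 h and 3320.0, 2605.2, 1825, 2694 and 2828 CPM in adults (log2 fold change 1.64, SE 0.21, edgeR adjusted p = 2.93e-08). Snap25, its partner on the plasma membrane, was at 123, 86.7, 84.6, 77.7 and 22.1 CPM and 484, 298, 554, 457 and 347 CPM (log2 fold change 2.44, SE 0.37, edgeR adjusted p = 2e-06). Neither overlapped. Mean nSyb levels at 18, 21, 24 and 27 h, 739, 809, 747 and 704 CPM, were close to that at 30 h, 855 ± 209 CPM (SD, n = 5).

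cpx, the complexin that clamps fusion, rose from 986–2587 to 5563–9504.1 CPM (log2 fold change 1.75, SE 0.25, edgeR adjusted p = 5.96e-07). Syx1A, the syntaxin of the fusion complex, rose from 511–735 to 964–3081 CPM (log2 fold change 1.53, SE 0.23, edgeR adjusted p = 2.23e-06), and the vesicle GTPase Rab3 from 238–414 to 612–2423 CPM (log2 fold change 2.56, SE 0.41, edgeR adjusted p = 6.26e-06). brp, the scaffold of the active zone, was at 716, 314, 390.4, 263 and 309 CPM at 30 h and 1020.2, 548, 438, 756 and 2142 CPM in adults (log2 fold change 1.30, SE 0.32, edgeR adjusted p = 0.00347). Its stages overlapped, and its call was lost without adult replicate 5 (edgeR adjusted p = 0.0794). The member that fell was Sh3beta, an SH3 domain protein, from 319.5–467 to 96.7–209 CPM (log2 fold change -1.22, SE 0.24, edgeR adjusted p = 0.000199).

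Rab27 and Rab26, GTPases of secretory and synaptic vesicles, rose among 67 tested Rab and Arf traffic genes, of which 3 rose and 3 fell (1 fell without 30 h replicate 2 or 5 and 6 without adult replicate 2). Rab27 was at 2.93, 52.6, 57.9, 5.62 and 0 CPM at 30 h and 1250.0, 933, 611, 566 and 1632 CPM in adults (log2 fold change 5.39, SE 1.03, edgeR adjusted p = 0.000161). Rab26 was at 3.32–37.3 and 211–491 CPM (log2 fold change 4.25, SE 0.73, edgeR adjusted p = 2.86e-05). Of 31 tested genes of lysosomes and of the V-ATPase, the proton pump that acidifies vesicles and lysosomes, 10 rose and none fell (3 fell at an unadjusted edgeR p under 0.05, 2 by DESeq2 and 0 by limma-voom). The V-ATPase subunit Vha55 rose from 119–234 to 288–1197 CPM (log2 fold change 2.39, SE 0.42, edgeR adjusted p = 4.95e-05), and Vha16-1 from 528–1229 to 1627–2205.4 CPM (log2 fold change 1.20, SE 0.25, edgeR adjusted p = 0.000435).

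Among the 30 tested genes of transmitter synthesis and transport 9 rose and 1 fell. VAChT, which loads acetylcholine into vesicles, was at 139, 37, 92.2, 59.9 and 112 CPM at 30 h and 431, 378, 367, 543 and 753 CPM in adults (log2 fold change 2.49, SE 0.37, edgeR adjusted p = 1.29e-06). ChT, which recovers choline, was at 7.55, 3.28, 2.53, 1.08 and 4.83 CPM and 39.9, 113, 128, 203 and 105.2 CPM (log2 fold change 4.93, SE 1.01, edgeR adjusted p = 0.000421). ChAT, the enzyme that makes acetylcholine and a gene named here after its values were seen, was at 104.3, 84.8, 102, 41.6 and 49.7 CPM and 369, 331, 448, 639.7 and 285 CPM (log2 fold change 2.44, SE 0.52, edgeR adjusted p = 0.000749). All 3 genes were separate between stages. prt, a vesicular transporter of Kenyon cells, rose from 70.4–131 to 662–1015 CPM (log2 fold change 3.07, SE 0.85, edgeR adjusted p = 0.0113).

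Genes of other transmitters were also in this group. Ddc, the decarboxylase of dopamine and serotonin synthesis, was at 10.6, 17.2, 29.6, 16.4 and 29.3 CPM at 30 h and 926, 796, 780.2, 1873 and 5860.3 CPM in adults (log2 fold change 6.63, SE 1.19, edgeR adjusted p = 5.77e-05). Gad1, which makes GABA, was at 21.3, 14.7, 76.1, 59.7 and 5.56 CPM and 1387, 836, 2538, 751 and 381 CPM (log2 fold change 5.05, SE 1.06, edgeR adjusted p = 0.000579). DAT, the dopamine transporter, fell from 332, 301, 474, 366 and 272 CPM to 8.52, 3.76, 0, 0 and 0 CPM (log2 fold change -7.15, SE 1.07, edgeR adjusted p = 1.69e-06). None of these genes overlapped between stages. Other markers of such neurons did not move with them in every library. Vmat, which loads monoamines, was at 0, 0, 11.4, 0 and 35.1 CPM at 30 h and 999, 17.8, 0, 16.1 and 144 CPM in adults (edgeR adjusted p = 0.148), and VGlut, which loads glutamate, was at 0–16.6 and 0–62.3 CPM (edgeR adjusted p = 0.432). Gs2, a glutamine synthetase used as a glial marker, rose from 56.3, 176, 112, 164 and 42 CPM to 1826, 1072, 799, 207 and 344 CPM (log2 fold change 2.95, SE 0.88, edgeR adjusted p = 0.021), a call lost without 30 h replicates 1 or 5 or adult replicate 1 (edgeR adjusted p = 0.057 to 0.0715). Gad1, Vmat, VGlut and DAT belong to the marker list of other neurons and Gs2 to that of glia whose sums were given above, and the part of such cells in these changes was not tested.

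Among receptors for monoamines, the called genes rose. Of 19 tested receptors for monoamines and muscarinic acetylcholine 9 rose and none fell (0 fell at an unadjusted edgeR p under 0.05, 0 by DESeq2 and 0 by limma-voom), with a median log2 fold change of 1.93. Dop1R1, the receptor through which dopamine writes olfactory memory, was at 284, 237, 250.1, 119 and 269 CPM at 30 h and 780.0, 768, 316, 1443 and 1661 CPM in adults (log2 fold change 2.10, SE 0.41, edgeR adjusted p = 0.000199). Octbeta1R, an octopamine receptor, was at 21.6, 55.2, 64.9, 47.4 and 0 CPM and 1176, 985, 849.9, 1106 and 543 CPM (log2 fold change 4.62, SE 1.26, edgeR adjusted p = 0.0102). Both were separate between stages. DopEcR, a receptor for dopamine and ecdysone, rose from 140.4–237 to 272–1381 CPM (log2 fold change 1.99, SE 0.31, edgeR adjusted p = 3.41e-06). Dop1R2, the dopamine receptor tied to forgetting, rose from 201–350.1 to 382–878 CPM (log2 fold change 1.13, SE 0.33, edgeR adjusted p = 0.0187) and lost its call without 30 h replicates 3 or 4 or adult replicate 5 (edgeR adjusted p = 0.0545 to 0.072). Dop2R, an inhibitory dopamine receptor, was at 185, 75.3, 56, 27.6 and 95.7 CPM and 535, 256, 83.2, 245 and 2164 CPM (log2 fold change 2.90, SE 0.56, edgeR adjusted p = 0.000194), with overlap and an adult range set by replicate 5.

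Ionotropic receptors rose in smaller numbers. Of 9 nicotinic receptor subunits 3 rose and none fell (0 fell at an unadjusted edgeR p under 0.05, 0 by DESeq2 and 0 by limma-voom). nAChRbeta1 was at 369.9, 308, 378, 268 and 384 CPM at 30 h and 2217, 1331, 896, 1629 and 2525 CPM in adults (log2 fold change 2.33, SE 0.30, edgeR adjusted p = 3.23e-08), and nAChRalpha6 was at 236–586 and 453–3308 CPM (log2 fold change 1.90, SE 0.30, edgeR adjusted p = 5.79e-06). Only nAChRalpha6 of these 2 overlapped. Of 25 receptors for GABA, glutamate and related ligands 8 rose and 2 fell. Those that rose were 5 without adult replicate 5 and 4 by limma-voom or with only the 10 libraries in the fit, and 1 fell when 30 h replicate 3 or any adult replicate was left out. Rdl, the GABA-gated chloride channel, was at 929, 729, 609, 414 and 1393 CPM and 3985, 2436, 1344, 2576 and 5164 CPM (log2 fold change 1.93, SE 0.29, edgeR adjusted p = 2e-06). GluClalpha, a glutamate-gated chloride channel, rose from 40.4–116 to 151–701 CPM (log2 fold change 2.47, SE 0.51, edgeR adjusted p = 0.000434), and pHCl-1, a chloride channel gated by pH, from 0–11.1 to 153–545 CPM (log2 fold change 7.07, SE 1.77, edgeR adjusted p = 0.00478). KaiR1D, a glutamate receptor of the kainate type, fell from 152, 110.0, 174, 143 and 45.5 CPM to 55.5, 30.2, 25.5, 48.2 and 0.526 CPM with overlap (log2 fold change -1.96, SE 0.49, edgeR adjusted p = 0.0048).

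Most called channels and pumps that set excitability rose. Of 33 tested potassium channel and sodium pump genes 12 rose and none fell (3 fell at an unadjusted edgeR p under 0.05, 1 by DESeq2 and 2 by limma-voom). Ih, the hyperpolarization-activated cation channel, was at 32.4, 24.4, 34.5, 23.6 and 39.2 CPM at 30 h and 739.6, 487, 328, 582 and 1321 CPM in adults (log2 fold change 4.49, SE 0.53, edgeR adjusted p = 5.07e-09). slo, the calcium-activated potassium channel, was at 83.6, 62.6, 69.3, 44.2 and 106 CPM and 817, 604.4, 459.8, 1217 and 1498 CPM (log2 fold change 3.65, SE 0.46, edgeR adjusted p = 3.23e-08). Neither gene overlapped between stages. The means for Ih at 18, 21, 24 and 27 h were 95.1, 75.5, 88.8 and 69.5 CPM, against 30.8 ± 6.72 CPM (SD, n = 5) at 30 h, and this earlier course was not tested.

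The sodium pump subunits Atpalpha and nrv3 rose from 1077–2252 to 5249–7361 CPM (log2 fold change 1.99, SE 0.28, edgeR adjusted p = 4.83e-07) and from 1070.2–1611 to 1983–5303 CPM (log2 fold change 1.67, SE 0.21, edgeR adjusted p = 1.81e-08). jus, a membrane protein whose loss causes seizures, rose from 27.5, 41, 102, 46.3 and 29 CPM to 1195, 875, 554, 1224 and 807 CPM (log2 fold change 4.24, SE 0.67, edgeR adjusted p = 5.65e-06). Of 36 sodium and calcium channel genes 6 rose and 2 fell. Ca-alpha1D, an L-type calcium channel, rose from 26.7–51.1 to 174–467 CPM (log2 fold change 2.99, SE 0.64, edgeR adjusted p = 0.000731). para, the voltage-gated sodium channel of the action potential, was at 262, 124, 179, 72.6 and 264 CPM and 722, 317, 198, 590.4 and 839.6 CPM with overlap (log2 fold change 1.56, SE 0.35, edgeR adjusted p = 0.00151).

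Second-messenger and memory genes rose more often than they fell, with 17 of 58 higher and 3 lower. rut, the adenylyl cyclase of olfactory learning, was at 12.6, 8.83, 11.6, 11.9 and 34.5 CPM at 30 h and 332, 99.9, 154, 253 and 309 CPM in adults (log2 fold change 3.85, SE 0.86, edgeR adjusted p = 0.00124). Pkc53E, a calcium-dependent protein kinase C, was at 311, 205.4, 182, 162 and 220.1 CPM and 1466, 1476, 998, 1151 and 4084 CPM (log2 fold change 3.09, SE 0.36, edgeR adjusted p = 3.58e-09). Neither overlapped. Akap200, an anchoring protein for protein kinase A that also binds actin, fell from 965, 1214, 984, 793 and 1148 CPM to 78.4, 109.5, 67.1, 163 and 56.3 CPM (log2 fold change -3.43, SE 0.27, edgeR adjusted p = 8.08e-15). Gbeta13F, a G protein beta subunit, fell slightly with overlap (log2 fold change -0.57, SE 0.18, edgeR adjusted p = 0.032) and lost its call without 30 h replicates 1 or 5 or adult replicates 3, 4 or 5 (edgeR adjusted p = 0.0503 to 0.0951). Pka-C1, the catalytic subunit of protein kinase A, was at 2318, 2167, 4584, 3449 and 1952 CPM and 2065, 1293, 4943, 3689 and 4489 CPM and was not called (log2 fold change 0.19, SE 0.57, edgeR adjusted p = 0.95).

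Of 47 tested neuropeptide and peptide-processing genes 9 rose and 1 fell, and DESeq2 called 16 higher. Of 42 tested peptide receptors 3 rose and 1 fell. sNPF, the peptide of Kenyon cells, was at 2.7, 20.3, 57.8, 35 and 1.69 CPM at 30 h and 1009, 1574, 2403, 2956 and 724 CPM in adults (edgeR adjusted p = 6.07e-06). Mean sNPF levels at 18, 21, 24 and 27 h were 9.72, 18.1, 14.1 and 33.3 CPM. IA-2, a phosphatase-like protein of dense core vesicles, was at 26.5, 12.2, 90.8, 26.6 and 14.9 CPM and 2483, 1148, 1291, 2691 and 4112 CPM (log2 fold change 6.10, SE 0.63, edgeR adjusted p = 1.26e-10). amon, the convertase that cuts peptide precursors, rose from 40–241 to 352–1098 CPM (log2 fold change 2.22, SE 0.49, edgeR adjusted p = 0.00118). None of the 3 overlapped between stages. NUCB1, a calcium-binding nucleobindin, fell from 459–893 to 109–256 CPM (log2 fold change -1.62, SE 0.30, edgeR adjusted p = 7.9e-05). SIFaR, a neuropeptide receptor, had no count at 30 h and 12.4, 1.35, 1.94, 69.9 and 2.45 CPM in adults (edgeR adjusted p = 0.0123), so its adult mean rests mainly on replicate 4.

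Of 32 tested genes of activity responses and the circadian clock 4 rose and 2 fell, and of 56 genes of RNA binding and translational control 3 rose and 3 fell. The 2 activity and clock genes that fell include hdc, which is also counted among the newborn neuron genes above. For RNA binding, 9 fell with a block for sets of library numbers or for replicate numbers, 7 by DESeq2 and 5 without adult replicate 4, and 5 rose without adult replicate 2. ps, the Nova-type splicing factor Pasilla, was at 84, 44.1, 109, 47.5 and 69.5 CPM at 30 h and 2267, 1709, 1186, 1444 and 6228 CPM in adults (log2 fold change 5.18, SE 0.76, edgeR adjusted p = 1.31e-06). Pdp1, a leucine zipper factor of the circadian clock, rose from 33.9–137 to 322–1188 CPM (log2 fold change 2.75, SE 0.35, edgeR adjusted p = 3.23e-08). sr, the fly Egr factor, which like Hr38 responds to activity, was at 0, 0.273, 0, 0 and 0.0562 CPM and 70.9, 40.6, 3.88, 153 and 301 CPM (edgeR adjusted p = 0.00569). The 3 genes were separate between stages, with adult replicate 5 highest in each.

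Other gene groups had few calls in either direction. Of 602 tested long noncoding RNAs 17 rose and 18 fell. DESeq2 called 30 and 57 of them. Those that rose were 6 without 30 h replicate 3 or 5, 8 without 30 h replicate 2 or 4 and 10 without 30 h replicate 1 or adult replicate 5. Those that fell were 7 without adult replicate 3, 10 without adult replicate 5 and 11 without 30 h replicate 5 or adult replicate 1. Of 99 genes of detoxification and redox balance 4 rose and 2 fell (2 rose when any 30 h replicate, or adult replicate 1 or 3, was left out), and of 40 genes of apoptosis and autophagy 1 rose and 1 fell. Of 74 mitochondrial ribosomal protein genes 2 rose and none fell (0 fell at an unadjusted edgeR p under 0.05, 0 by DESeq2 and 0 by limma-voom), while their median log2 fold change was 0.67. Of 65 genes of Notch, Wnt and TGF-beta signalling 5 fell and none rose (4 rose at an unadjusted edgeR p under 0.05, 3 by DESeq2 and 0 by limma-voom). Of 64 genes of the cell cycle and DNA replication 5 fell and none rose (0 rose at an unadjusted edgeR p under 0.05, 1 by DESeq2 and 0 by limma-voom), and 16 fell by DESeq2, 0 by limma-voom and 15 at an unadjusted edgeR p under 0.05.

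Factors of Kenyon cell identity and fate were called in shares near those of all tested genes. Of 37 tested members 3 rose (8.11%, against 5.06% of all tested genes) and 2 fell (5.41%, against 5.18%). Without adult replicate 3, 5 rose. ey, the Pax6 factor of Kenyon cells, was at 474, 444, 491, 756 and 615 CPM at 30 h and 396, 476, 365, 641 and 494 CPM in adults (log2 fold change -0.23, SE 0.33, edgeR adjusted p = 0.769). toy, the other Pax6 gene, and dac were at 512–894 and 119.9–392 CPM at 30 h and 466–1308 and 77.8–367 CPM in adults (0.11 and -0.55 log2, edgeR adjusted p = 0.943 and 0.305). The stages overlapped for all 3. chinmo, a temporal factor that specifies gamma neurons, was at 116–250.5 and 117–538 CPM (log2 fold change 0.50, SE 0.29, edgeR adjusted p = 0.272), and the RNA-binding protein Syp, its repressor, at 278–483 and 41.4–367 CPM (log2 fold change -0.81, SE 0.30, edgeR adjusted p = 0.0736).

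The members that changed were fru, Mef2, sr, bi and jing. fru, a factor of the sex determination pathway expressed in gamma neurons, was at 48, 20.1, 40.4, 8.53 and 219 CPM at 30 h and 1297, 1447, 564, 1541 and 2044 CPM in adults (log2 fold change 4.36, SE 0.81, edgeR adjusted p = 0.000108). Its 30 h replicate 5 was well above the other 30 h libraries and still below every adult library. Mef2, which marks Kenyon cells, rose from 163–302 to 371–987 CPM (log2 fold change 1.20, SE 0.39, edgeR adjusted p = 0.0385) and lost its call without 30 h replicates 2, 3, 4 or 5 or adult replicates 4 or 5 (edgeR adjusted p = 0.0518 to 0.146). bi, a T-box factor, fell from 4.84, 23.9, 21.1, 27.6 and 15.2 CPM to 3.55, 0, 0.114, 0 and 0.701 CPM (log2 fold change -4.42, SE 0.97, edgeR adjusted p = 0.00111), and the zinc finger factor jing from 103.6–244 to 27.8–108 CPM (log2 fold change -1.29, SE 0.35, edgeR adjusted p = 0.00974).

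Whether the change from 30 h to the adult differed between gamma and alpha-beta neurons was tested for each gene in the same fit. The difference passed for 67 of 10072 genes (0.665%), with 46 more positive in gamma neurons and 21 more negative, and 25 of the 67 were also called in gamma neurons. This count was 41 and 44 without gamma 30 h replicates 2 and 3, and 103, 113 and 134 without gamma adult replicate 2, alpha-beta adult replicate 1 and alpha-beta adult replicate 3. DESeq2 called 924 genes, limma-voom 123, and the fit with only the 20 libraries compared 16.

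Temporal and fate factors were among the genes whose changes differed. ab, a BTB zinc finger factor, was at 1119, 882, 796, 661 and 1697 CPM at 30 h and 1511, 1113, 618, 1123 and 5530.4 CPM in adult gamma neurons, while in alpha-beta neurons it ranged from 596–1068 CPM at 30 h to 53.9–194 CPM in adults (difference of log2 changes 3.46, SE 0.55, edgeR adjusted p = 0.000232). Imp, an RNA-binding protein that marks early temporal identity, was at 196–502 and 215–1217 CPM in gamma neurons and 157–395 and 37.3–156 CPM in alpha-beta neurons (difference of log2 changes 2.47, SE 0.51, edgeR adjusted p = 0.00489). mamo, a BTB zinc finger factor of Kenyon cell fate, was at 2500.4–7686 and 1840.5–6560.2 CPM in gamma neurons and 3139–6303 and 456–957 CPM in alpha-beta neurons (difference of log2 changes 2.27, SE 0.45, edgeR adjusted p = 0.00352). In each case the gamma stages overlapped and were not called, and the alpha-beta neurons fell.

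zfh2, a zinc finger homeodomain factor, followed the same pattern, with 191–468 and 287–667 CPM in gamma neurons and 158–674 and 22.4–132 CPM in alpha-beta neurons (difference of log2 changes 2.96, SE 0.58, edgeR adjusted p = 0.00299). pros, a homeodomain factor of differentiation, went the other way, with 1395–3217 and 773–3619 CPM in gamma neurons against 2198–3529.8 and 5841–8693 CPM in alpha-beta neurons, where it rose (difference of log2 changes -1.51, SE 0.34, edgeR adjusted p = 0.0139).

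Some genes were called lower in gamma neurons and not in alpha-beta neurons. stan, without a count in any adult gamma library, was at 3.12–41.2 CPM at 30 h and 0–192 CPM in adult alpha-beta neurons (edgeR adjusted p = 0.00035 for the difference). SP1173 was at 28.2, 43.9, 113, 83.5 and 3.71 CPM at 30 h and 1.93, 0, 0, 0 and 0 CPM in adult gamma neurons, and at 15.6–94.8 and 23.1–254 CPM in alpha-beta neurons (difference of log2 changes -8.87, SE 1.43, edgeR adjusted p = 0.000232). CG12880 was at 0–24.1 and 0–55.4 CPM in alpha-beta neurons (edgeR adjusted p = 0.0094), and betaTub60D at 0–17.1 and 0–8.19 CPM (edgeR adjusted p = 0.0207). ETHR and CG15522 fell in both classes, but further in gamma neurons. CG15522 was at 1073, 1264, 621, 715 and 1259 CPM at 30 h and 23.1, 0.0963, 7.42, 7.89 and 4.73 CPM in adult gamma neurons, against 423–771 and 0.451–179 CPM in alpha-beta neurons (difference of log2 changes -4.15, SE 0.84, edgeR adjusted p = 0.00443), and ETHR was at 24.4–249.9 and 0–50.1 CPM in alpha-beta neurons (edgeR adjusted p = 0.000412). Hsp67Bc also fell further in gamma neurons (difference of log2 changes -2.11, SE 0.52, edgeR adjusted p = 0.033).

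Other decreases were smaller in gamma neurons. betaTub56D was at 4398–7203.5 CPM at 30 h and 887–1442 CPM in adult alpha-beta neurons, a larger decrease than in gamma neurons (difference of log2 changes 1.38, SE 0.27, edgeR adjusted p = 0.00337). MESR6 was at 56.7–116 and 0–31.8 CPM in gamma neurons and 72.4–120.2 and 0–0.923 CPM in alpha-beta neurons (difference of log2 changes 6.78, SE 1.10, edgeR adjusted p = 0.000232). GILT1, a lysosomal thiol reductase, was at 73–139.9 and 0–27.7 CPM in gamma neurons and 24.9–63.7 and 0–0.146 CPM in alpha-beta neurons (edgeR adjusted p = 0.0149). teq and Eglp4 also passed, but their adult gamma values of 54, 1.25, 0, 0 and 0 CPM and 34.8, 0, 0, 0.446 and 0 CPM rest on replicate 1. Their calls in gamma neurons were lost without adult replicate 1 (edgeR adjusted p = 0.113) for teq and without adult replicate 1 (edgeR adjusted p = 0.215) for Eglp4.

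For the genes of growth, energy and synaptic function described above, the difference between the classes was mostly not called. Act42A fell in alpha-beta neurons too (log2 fold change -3.67, edgeR adjusted p = 1.36e-11), and the difference was not called (difference of log2 changes -0.54, SE 0.45, edgeR adjusted p = 0.831). The difference was also not called for nSyb (log2 fold change 1.79, edgeR adjusted p = 2.17e-09 in alpha-beta neurons, difference of log2 changes -0.15, SE 0.28, edgeR adjusted p = 1.0) and for Ald1 (log2 fold change 4.91, edgeR adjusted p = 1.58e-11 in alpha-beta neurons, difference of log2 changes -0.81, SE 0.58, edgeR adjusted p = 0.725). A difference that misses the threshold does not show that the classes changed alike. fru, Dop1R1 and klg rose with edgeR adjusted p-values of 0.000108, 0.000199 and 4.19e-06 in gamma neurons, and the difference from alpha-beta neurons did not pass for fru (difference of log2 changes 3.69, SE 1.03, edgeR adjusted p = 0.0663), Dop1R1 (difference of log2 changes 1.79, SE 0.56, edgeR adjusted p = 0.105) or klg (difference of log2 changes 2.21, SE 0.61, edgeR adjusted p = 0.0618).

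**Figure D5:**
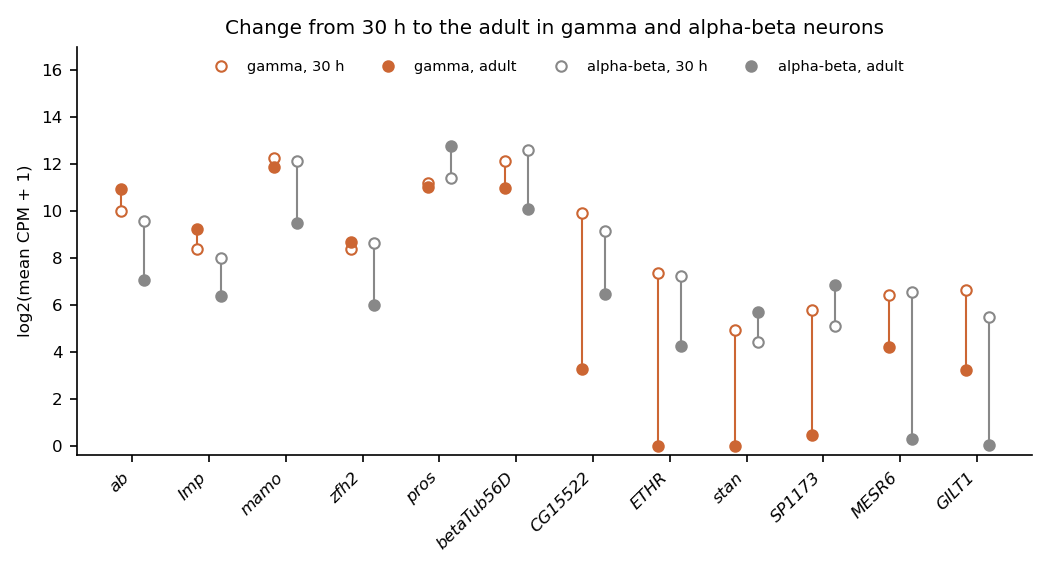
For 12 genes whose change differed between the classes, circles show log2(mean CPM + 1) over 5 libraries at 30 h (open) and in adults (filled) for gamma (orange) and alpha-beta (grey) neurons, joined by a line. For ab, Imp, mamo and zfh2 the adult mean is far below the 30 h mean in alpha-beta neurons and not far below it in gamma neurons. The gamma mean of ab is higher in adults, where replicate 5 stands apart. For stan and SP1173 the adult mean is far below the 30 h mean only in gamma neurons.

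In the authors' deposited table of this comparison, 2428 genes had an adjusted p-value under 0.05, of which 1019 were higher and 1409 lower in adults. Of the 1032 genes called here, 1011 passed in the authors' deposited table, all in the same direction.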

How the data were processed

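The authors deposited 1 table that, per the file headers, gives the raw count of every gene symbol in every library, and only these counts were tested. STAR is named in the submitters' processing notes; the counting program and genome build are not given in the sources used here, so no coordinates are printed. For the authors' own comparison the deposited log2 fold change and p-value were read only to count shared calls. Gene symbols were used as deposited (12239 of 12453, 98.3%, matched the reference list), and 0 count columns lacked a sample.

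Genes were kept by filterByExpr (minimum count 10, minimum total 15) and tested with edgeR 4.0.16 in R 4.3.3, with TMM scaling and all 12 groups of 58 libraries in 1 quasi-likelihood fit, by two-sided F-tests with Benjamini-Hochberg adjustment. The common biological coefficient of variation was 1.34. The SE of a log2 fold change is its size divided by the square root of F. DESeq2 1.42.0 and limma 3.58.1 (voom with sample weights) were alternatives. The 20 pairs of libraries within a stage differed by a chi-square per degree of freedom of 162 to 854. Where every library of a stage had 0 counts, folds are lower bounds against 3 counts in its smallest library (0.338 CPM at 30 h, 0.526 CPM in adults), which cover counting error only, and fitted log2 fold changes of such genes depend on the prior count and are not given. The members and gene lists were chosen with earlier results of these data known. Genes named are the 12 largest increases and 12 largest decreases without overlap (average log2 CPM of at least 4), up to 4 called members per direction and the 2 most abundant of each list, members of 4 lists of hormone, fate, insulin and regrowth genes, cell type markers, and up to 5 genes per direction for the difference between classes. The test was tried on simulated counts first.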

Additional observations from a re-analysis of the deposited data

Results flagged for a closer look

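Single libraries stood apart from the other 4 of their stage in 49 of 322 stage values tested with Dixon's test at the 95% level (critical value 0.71). Chance alone gives about 1 in 20 for independent, normally distributed values. The values here share the same 10 libraries and belong to selected genes, so the count of 49 is a description and no test. Of these, 14 were in adult replicate 5, 10 in adult replicate 1 and 8 in 30 h replicate 5. Adult replicate 5 was the highest adult library with CG34247 at 0.175 CPM, Cyt-c-p at 3816 CPM, Ddc at 5860.3 CPM, Dop2R at 2164 CPM, Pkc53E at 4084 CPM, tsr at 927 CPM, kek1 at 3397 CPM, klg at 1333 CPM, InR at 273 CPM, HDAC4 at 608 CPM, ps at 6228 CPM, Eip93F at 700.1 CPM and ab at 5530.4 CPM, and the lowest with Vha55 at 288 CPM. Adult replicate 1 was highest with CG3009 at 197 CPM, cpx at 9504.1 CPM, Vmat at 999 CPM, VGlut at 62.3 CPM, repo at 13.6 CPM, bi at 3.55 CPM, bt at 43 CPM, SP1173 at 1.93 CPM, teq at 54 CPM and Eglp4 at 34.8 CPM. Adult replicate 2 was highest with otk at 3.56 CPM, RpS5a at 348 CPM and Oatp74D at 0.77 CPM, and adult replicate 4 with SIFaR at 69.9 CPM. At 30 h, replicate 5 was highest with CG13023 at 763 CPM, Spn43Aa at 488 CPM, rut at 34.5 CPM, Rac1 at 1486 CPM, Hsp27 at 14408 CPM, Blimp-1 at 1187 CPM, fru at 219 CPM and pHCl-1 at 11.1 CPM. Replicate 3 was highest with ftz-f1 at 1.07 CPM, CG10257 at 0.0791 CPM, CG31075 at 85.6 CPM, jus at 102 CPM, IA-2 at 90.8 CPM and REPTOR at 54.6 CPM. Replicate 1 was highest with brp at 716 CPM and grh at 17.5 CPM, replicate 2 with CG14757 at 1.09 CPM and sr at 0.273 CPM and replicate 4 with Got2 at 0.474 CPM. Replicate 4 was lowest with Dop1R1 at 119 CPM and chic at 1966 CPM. Several of these values are a few counts in a group otherwise at 0, such as those of CG10257, CG34247 and sr.

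The change from 30 h to the adult differed between gamma and alpha-beta neurons, by the edgeR interaction test, for 17 of the genes named. The gamma change was more positive by 3.46 on the log2 scale for ab, 2.47 for Imp, 2.27 for mamo, 2.96 for zfh2, 1.38 for betaTub56D, 6.78 for MESR6, 6.86 for GILT1, 15.62 for teq and 16.31 for Eglp4. It was more negative for the others, with log2 differences of -1.51 for pros, -2.11 for Hsp67Bc, -4.15 for CG15522, -8.87 for SP1173, -11.06 for ETHR, -10.62 for betaTub60D, -12.98 for CG12880 and -12.99 for stan. Where a group had no counts, as for ETHR, betaTub60D, CG12880, stan, teq and Eglp4, the fitted size depends on the prior count and is no measure of the fold.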

How the results depend on the processing

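All 1032 calls kept their direction in every alternative that called them. The counts of 510 genes higher and 522 lower became 897 and 1275 with DESeq2, which shared 1013 of the 1032, and 301 and 164 with only the 10 libraries in the fit, where 6628 genes were tested and 431 calls were shared. They stayed within 1.5 times of those counts with RLE size factors, other filters, limma-voom (608 and 668, 779 shared) and a block for sets of library numbers (559 and 661). The 67 genes whose change differed between classes became 924 with DESeq2, 123 with limma-voom and 16 with only the groups compared. Without single replicates the counts ran from 388 to 508 higher, 437 to 563 lower and 41 to 134 for the difference. The median log2 fold change of all tested genes was -0.07, and -0.3 with limma-voom, -0.2 with the set block and -0.19 with the replicate block (-0.07 with RLE size factors). The labels do not say whether replicate numbers pair the samples, and the main fit held no block. Deviations of same-numbered libraries correlated at 0.035, 0.0589, 0.0796, 0.0709 and 0.1727, and those of differently numbered libraries at -0.1785 to 0.1606. Libraries in the same set of numbers correlated at 0.035, 0.0589, 0.1077, 0.1606 and 0.1727. The same-numbered and same-set values were low but all above 0, and they do not establish whether libraries are paired. A replicate block gave 534 higher, 611 lower and 70 that differed between classes. Among gene groups not covered above, DESeq2 called 14 guidance, 19 actin, 15 tubulin and motor, 17 neuroblast and newborn neuron and 12 Notch, Wnt and TGF-beta genes lower, and 10 sodium and calcium channel genes higher. With only the 10 libraries, 6 chaperone, 5 neuroblast and newborn neuron, 3 adhesion, 2 chromatin and 1 Notch, Wnt and TGF-beta genes fell, and 4 adhesion and 2 tubulin and motor genes rose. Limma-voom called 6 chaperone, 8 adhesion and 9 Notch, Wnt and TGF-beta genes lower. Of the other values compared, 4231 were the same, which means within 1.5 times for a group count and an unchanged call and direction for a gene. A further 367 moved, which means a larger shift of a group count or a changed sign in an uncalled gene. For genes, 78 values lost a call, 17 gained one and 0 reversed. No limit was set on shifts in the size of a gene's fold change. The cause of these shifts was not tested.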
